A study of Homo sapiens with 2 samples.

Results

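The genes described here encode DUSP phosphatases of MAP kinases: DUSP1, DUSP2, DUSP4, DUSP5, DUSP6, DUSP7, DUSP8, DUSP10, DUSP16 and DUSP22. They were taken as a list of 10 gene symbols, of 19775 genes on the array, and every probe set whose annotation named exactly 1 of these symbols was used, which gave 23 probe sets. RNA came from MM.1S, an established human multiple myeloma cell line, and was measured with Affymetrix HG-U133 Plus 2.0. The MM.1S cells were grown with plasmacytoid dendritic cells (pDCs), immune cells known for making type I interferon, or on their own. There was 1 array for co-culture and 1 for MM.1S alone (n = 1), so no value has a replicate error and no test between the groups was possible. Nothing in the labels says whether pDCs were removed before RNA was extracted, and in such bulk RNA fewer cells of a type and less RNA per cell cannot be told apart. The series asks how pDCs give myeloma cells growth and drug resistance.

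MAP kinases (ERK, JNK and p38) are switched on when a threonine and a tyrosine in their activation loop are phosphorylated. Dual-specificity phosphatases of the DUSP family remove both phosphates and so switch the kinases off. Several of these phosphatases are transcribed in response to MAP kinase activity and act as negative feedback, and in plasma cell tumours the RAS and ERK route is one that is often mutated.

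In co-culture, DUSP1 and DUSP2 were lower and DUSP4 and DUSP6 were higher, so the feedback phosphatases had no common direction. DUSP6 was only 1.26-fold higher on its brightest probe set, and 23.5% of genes had a higher ratio. On the brightest probe set of each gene, DUSP1 was the only member past 2-fold in the lower direction (2.99-fold), and 0 members were past it in the higher direction. Over all genes with a ratio, 4.51% were at least 2-fold lower and 3.16% were at least 2-fold higher. At 1.5-fold, DUSP1, DUSP2 and DUSP16 were lower and DUSP4 was higher, against 15.3% of genes lower and 11.5% higher at that size. The median log2 ratio of the 10 members, taken as co-culture minus alone, was -0.29, beside -0.03 over 14408 genes. Of the members, 7 had a negative and 3 a positive ratio, and of all genes 52.2% had a negative one. Signals are linear, and a signal below the median of its array (115.9 in co-culture and 124.0 alone, called the floor) was set to that median. A ratio with 1 such array is a bound, written "at least".

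**Figure D1:**
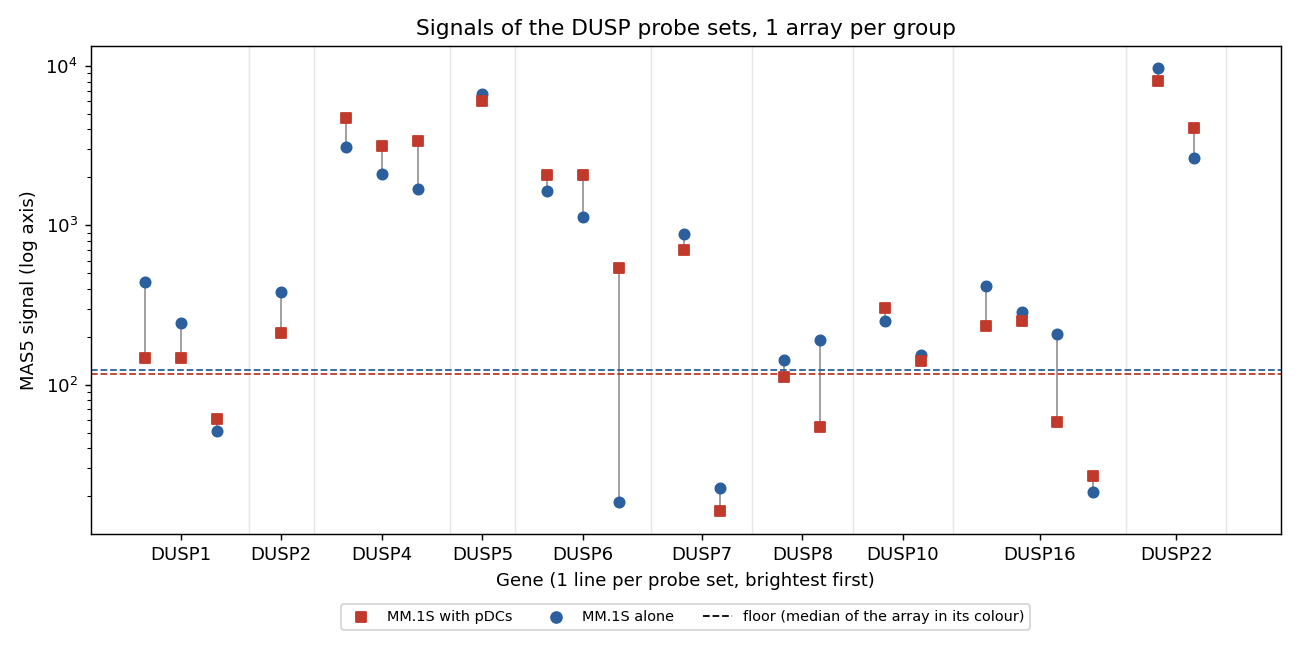
MAS5 signal (log axis) of each of the 23 probe sets of the 10 DUSP genes in MM.1S cells with pDCs (red squares) and alone (blue circles), 1 array each, with the floor of each array as a dashed line in its colour. A grey line joins both values of a probe set, and the longest belongs to the third DUSP6 probe set, at 540.4 with pDCs and 18.3 alone.

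Promoter sequence is shown for DUSP1 and DUSP2, which were both lower, for DUSP8, which holds the same element as DUSP1, and for DUSP6, which was higher. Each is the 250 bases before the annotated start in RefSeq, build GRCh38.p14, read 5′ to 3′ on the minus strand, the strand of the gene. They lie at chr5:172771196-172771445 (DUSP1), chr2:96145441-96145690 (DUSP2), chr11:1572272-1572521 (DUSP8) and chr12:89352502-89352751 (DUSP6). Capitals mark TGACG, TGACGTCA and CACGTG found on either strand.
DUSP1: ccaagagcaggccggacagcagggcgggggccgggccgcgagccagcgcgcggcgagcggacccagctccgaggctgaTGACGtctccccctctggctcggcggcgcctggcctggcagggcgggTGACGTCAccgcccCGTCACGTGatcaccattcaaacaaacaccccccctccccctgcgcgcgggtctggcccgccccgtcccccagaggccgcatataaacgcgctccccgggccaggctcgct
DUSP2: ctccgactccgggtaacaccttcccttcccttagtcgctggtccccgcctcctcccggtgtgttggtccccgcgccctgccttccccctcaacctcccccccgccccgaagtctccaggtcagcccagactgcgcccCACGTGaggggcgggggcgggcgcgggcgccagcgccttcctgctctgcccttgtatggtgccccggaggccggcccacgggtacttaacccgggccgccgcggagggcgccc
DUSP8: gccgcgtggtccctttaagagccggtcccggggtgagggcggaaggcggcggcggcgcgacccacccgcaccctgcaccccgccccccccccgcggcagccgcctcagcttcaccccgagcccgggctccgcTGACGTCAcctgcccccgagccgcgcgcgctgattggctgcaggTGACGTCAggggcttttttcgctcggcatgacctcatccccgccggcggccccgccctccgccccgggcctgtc
DUSP6: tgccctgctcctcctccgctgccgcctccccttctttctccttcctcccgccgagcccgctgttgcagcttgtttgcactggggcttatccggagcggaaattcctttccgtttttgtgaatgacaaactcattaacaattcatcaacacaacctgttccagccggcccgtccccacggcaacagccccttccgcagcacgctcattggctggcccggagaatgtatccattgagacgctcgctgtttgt

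The full cyclic AMP response element, TGACGTCA, the binding sequence of CREB and ATF factors, began 125 bases before the start of DUSP1. DUSP8 held it 2 times, 118 and 74 bases before its start. Of 35116 promoters of 300 bases (250 before the start and the rest after it), 1.85% held this sequence. Among members it was in 2 of the 8 genes with a promoter in the table used. DUSP4 and DUSP5 had no promoter there. The 8 genes had 9 promoters, and members are counted by gene while percentages are by promoter. The E-box CACGTG was in DUSP1 and DUSP2, 108 and 113 bases before their starts, and in 7.26% of all promoters. The shorter TGACG, which is part of TGACGTCA, was in 3 of the 8 genes and in 24.6% of promoters. In DUSP1 a TGACG on the opposite strand overlapped the E-box. The AP-1 sequence TGANTCA was in 0 of the 8 genes and in 7.71% of promoters, and the GC box GGGCGG was in 7 of them and in 45% of promoters. These matches describe letters in a window. Both genes with TGACGTCA had negative ratios, as had 7 of all 10 members. DUSP8 had a signal near the floor, and its ratios are bounds. A link between these sequences and the ratios was not tested.

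The inducible nuclear phosphatases were DUSP1, DUSP2, DUSP4 and DUSP5, which act on MAP kinases in the nucleus. DUSP1 (MKP-1) inactivates p38, JNK and ERK and is induced by stress, growth factors and glucocorticoids. Its brightest probe set, 201041_s_at, had a signal of 148 in co-culture and 442 alone. The next, 226578_s_at, had 146 in co-culture and 245 alone. Both were lower with pDCs, and both co-culture values stood just above the floor. Log2 ratios were -1.58 and -0.74, and 0.666% of genes had a lower ratio than the first. The third probe set, 201044_x_at, was below the floor on both arrays (61.0 and 51.2). Among 2947 genes with 2 probe sets that exceeded the floor on both arrays, 1.73% had a higher value of the pair below that of DUSP1, so few genes were lower on both probe sets by as much. Those genes were of all signal levels. For probe sets with a mean log2 signal under 8, as both of these were, the SD of log2 ratios within a gene was 0.56, against 0.48 over all. Of probe sets with a mean log2 signal from 7 to 9, 7.71% were at least 2-fold lower and 6.74% at least 2-fold higher. With the floor at the 70th percentile of each array, DUSP1 was no longer past 2-fold (log2 ratio at most -0.64), and both of its probe sets above the floor are of the s_at class, which can bind several transcripts.

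DUSP2 (PAC-1), a phosphatase of activated lymphoid cells that acts on ERK and p38, had 1 probe set, with a signal of 212 in co-culture and 379 alone. It was 1.79-fold lower (log2 ratio -0.84), and 7.43% of genes had a lower ratio. DUSP5, which is selective for ERK in the nucleus, was among those that differed little. Its single probe set gave 6063 in co-culture and 6660.1 alone, a log2 ratio of -0.14.

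DUSP4 (MKP-2), which is induced by ERK and acts on ERK and JNK, was higher on each of its 3 probe sets. Probe set 204014_at had a signal of 4723 in co-culture and 3118 alone. The second, 204015_s_at, had 3144 and 2096. The third, 226034_at, had 3399 and 1684. On each probe set the co-culture array was the higher one, and all 6 signals were far above the floor. Log2 ratios were 0.60, 0.58 and 1.01, the last being 2.02-fold, and the mean log2 ratio was 0.73. The third was just under 2-fold after quantile normalization (log2 ratio 0.999). Probe sets of 1 gene share their RNA and are not replicates, but their spread gives a scale of measurement error within these arrays. For probe sets with a mean log2 signal of 11 and over, the SD of log2 ratios within a gene was 0.360. Of 1237 genes with 3 probe sets that exceeded the floor on both arrays, 21.3% were positive on all 3, and 1.29% had a lowest ratio above the 0.58 of DUSP4.

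**Figure D2:**
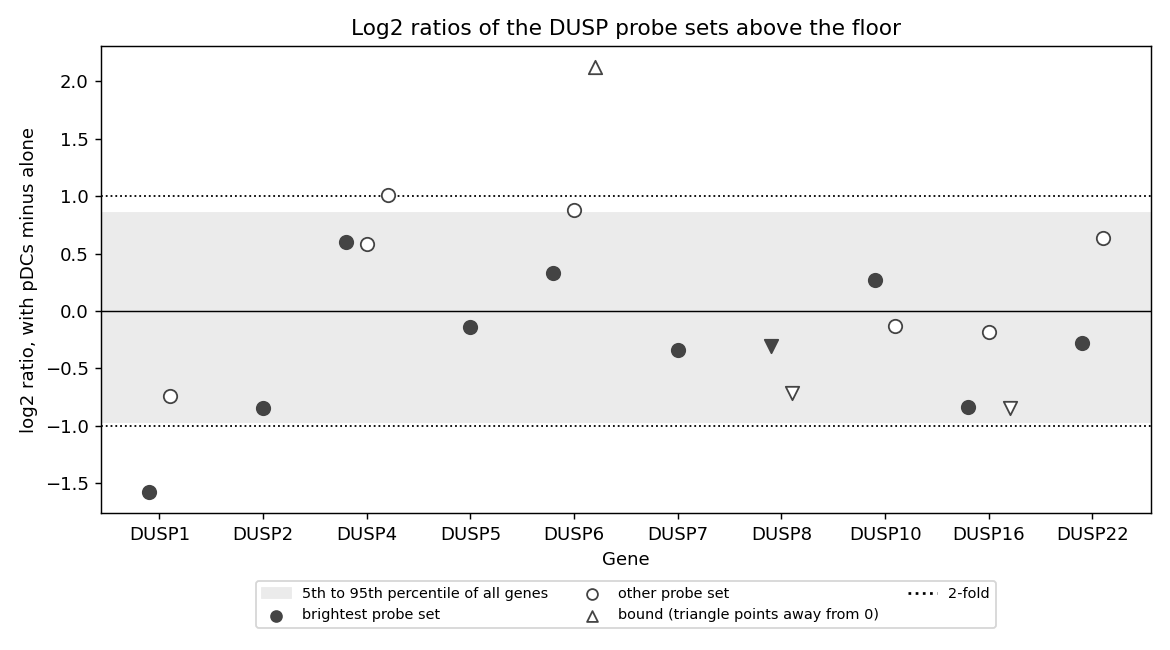
Log2 ratio (with pDCs minus alone) of the 20 DUSP probe sets above the floor on at least 1 array, by gene, with the brightest probe set of each gene filled, bounds as triangles and the 5th to 95th percentile of all genes in grey. DUSP4 and DUSP6 lie above 0 on every probe set, DUSP1, DUSP8 and DUSP16 below 0 on every probe set, and DUSP10 and DUSP22 on both sides.

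The cytoplasmic phosphatases that are selective for ERK were DUSP6 and DUSP7. DUSP6 (MKP-3) binds ERK in the cytoplasm and is a common readout of ERK activity. Probe set 208891_at had a signal of 2075 in co-culture and 1652 alone, and 208892_s_at had 2065 and 1124. The third, 208893_s_at, had 540.4 in co-culture but 18.3 alone, where it was below the floor. DUSP6 was thus higher with pDCs on every probe set, by amounts that differed widely. Log2 ratios were 0.33, 0.88 and at least 2.12, the last being at least 4.36-fold. The other probe sets of DUSP6 had the same sign and smaller ratios. On its brightest probe set DUSP6 was 1.26-fold higher, and 23.5% of genes had a higher ratio. For probe sets with a mean log2 signal from 10 to 11, the SD within a gene was 0.408. Of genes with 2 probe sets that exceeded the floor on both arrays, 9.91% had a lowest ratio above the 0.33 of DUSP6. The mean over the probe sets of DUSP6 was at least 1.11 (log2 ratio), past 2-fold, and includes the bound of 208893_s_at. DUSP7 (MKP-X), a close relative of DUSP6, had 702 in co-culture and 886 alone on 213848_at, a log2 ratio of -0.34. Its other probe set was below the floor on both arrays (16.0 and 22.3).

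Over the 20 member probe sets with a ratio, 2 were at least 2-fold higher (1 each of DUSP4 and DUSP6) and 1 was at least 2-fold lower (DUSP1). Over all probe sets with 1 symbol, 4.19% were at least 2-fold higher and 4.67% at least 2-fold lower. The median log2 ratio of the member probe sets was -0.16, with 12 negative and 8 positive.

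**Figure D3:**
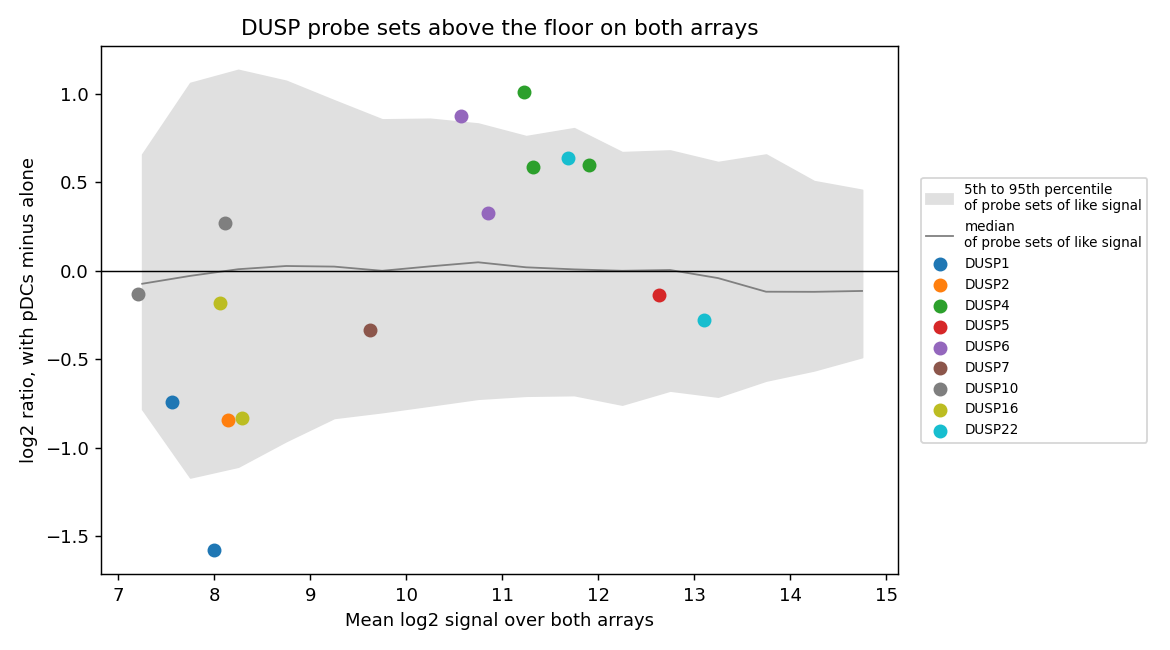
Log2 ratio (with pDCs minus alone) against the mean log2 signal for the 16 DUSP probe sets that exceeded the floor on both arrays, coloured by gene, with the 5th to 95th percentile of all probe sets of like signal in grey and their median as a line. The band is widest between mean log2 signals of 7.5 and 8.5, and 201041_s_at of DUSP1, 226034_at of DUSP4 and 208892_s_at of DUSP6 lie outside it.

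The phosphatases of JNK and p38 were DUSP8, DUSP10 and DUSP16, all of low signal. DUSP16 (MKP-7), which acts mainly on JNK, had 234 in co-culture and 416 alone on 224832_at. It had 251 and 285 on 224336_s_at, and 58.6 and 208 on 1555399_a_at. The co-culture array was the lower one each time, and on the last probe set it was below the floor. Log2 ratios were -0.83, -0.18 and at most -0.85. The remaining probe set, 1563505_at, was below the floor on both arrays (26.7 and 21.3). For probe sets with a mean log2 signal from 8 to 9, the SD within a gene was 0.546, the scale against which the ratios of DUSP16 are read.

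DUSP8, a phosphatase of JNK and p38 found mostly in brain and heart, was below the floor in co-culture on both probe sets. It had 112 in co-culture and 143 alone on 206374_at, and 54.1 and 190.2 on 238594_x_at. These gave at least 1.23-fold and at least 1.64-fold lower. DUSP10 (MKP-5), which acts on JNK and p38, had 305 and 252 on 215501_s_at and 141 and 154 on 221563_at. Its log2 ratios of 0.27 and -0.13 had opposite signs, which was also so in 40.9% of genes with 2 such probe sets, and their distance of 0.40 was close to the median distance of 0.42 in those genes.

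DUSP22 (JKAP), an atypical member without the domain that docks on MAP kinases, is known for acting on the JNK route and in T cell receptor signalling. Its probe set 218845_at had 8007 in co-culture and 9716 alone, and 226440_at had 4095 and 2636. One was lower and the other higher with pDCs. Log2 ratios were -0.28 and 0.64. Their distance of 0.91 was larger than in 83.2% of genes with 2 such probe sets, and the mean over both was 0.18, so the sign for DUSP22 depends on the probe set.

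**Figure D4:**
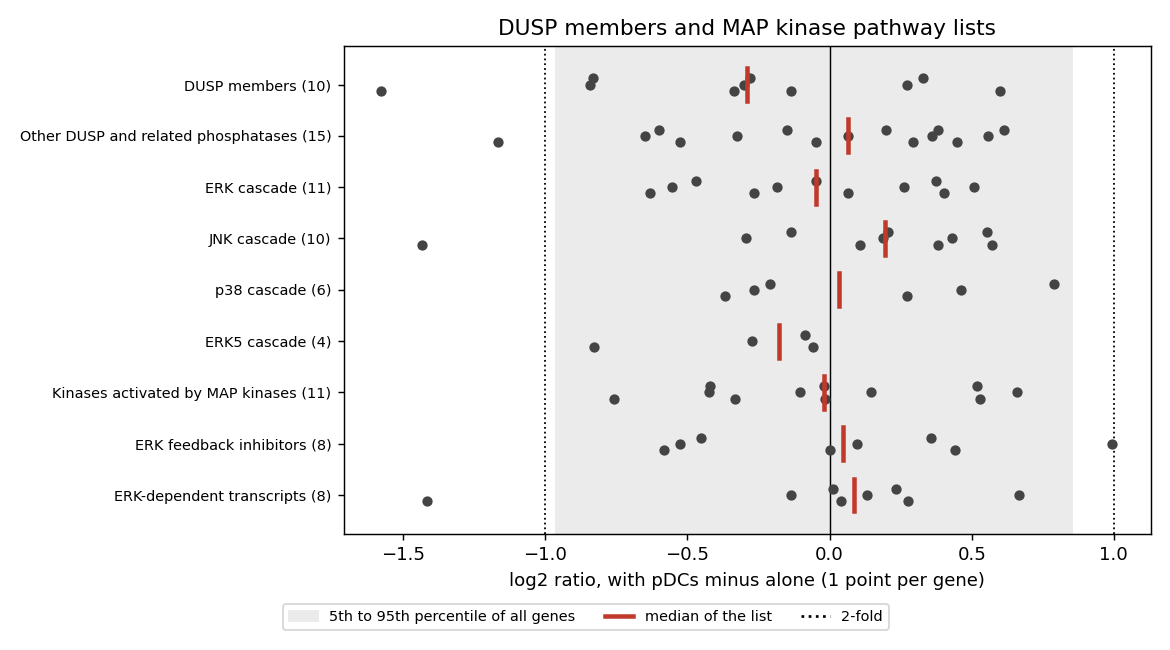
Log2 ratio (with pDCs minus alone) of the 10 DUSP members and of genes in 8 MAP kinase pathway lists, 1 point per gene on its brightest probe set, with the median of each list in red and the 5th to 95th percentile of all genes in grey. Numbers of genes with a ratio stand in parentheses, and the median of the DUSP members, at -0.29, is the lowest shown.

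Of 73 other genes of the MAP kinase routes with a ratio, 0 were at least 2-fold higher and 3 at least 2-fold lower, beside 3.16% and 4.51% of all genes, with 38 above 0, 35 below 0 and a median log2 ratio of 0.01. In the ERK cascade 11 genes had a ratio, 5 positive and 6 negative, with a median of -0.05. MAPK3, which encodes ERK1, had 465 in co-culture and 682 alone (log2 ratio -0.55). MAP2K2, the kinase MEK2, had 6703 and 7625 (-0.19). In the JNK cascade 7 of 10 genes were positive, with a median of 0.20. MAPK8, which encodes JNK1, had 611 and 749.6 (-0.30). Its 3 other probe sets with a ratio gave -0.13, -0.06 and at most -1.06, the last at 107 and 242 and below the floor in co-culture. MAPK8IP3, a scaffold of the JNK cascade, was 2.70-fold lower (455 and 1229), and 3 other probe sets were lower too, at 142 and 187, 72.0 and 146, and 18.8 and 216, the latter 2 being below the floor in co-culture. The 2-fold call was lost with the mean over probe sets (log2 ratio at most -0.76) and without x_at and s_at probe sets (-0.40). In the p38 cascade 6 genes had a ratio and the median was 0.03, with MAPK13, the p38 delta kinase, at 2421 and 1400 (0.79, and -0.47 on its other probe set). The 4 genes of the ERK5 cascade had ratios from -0.83 to -0.06 on their brightest probe sets, MAP3K2 among them with 1597 and 1928 (-0.27). Another MAP3K2 probe set was past 2-fold the other way (521 and 259, log2 ratio 1.01). MAP2K5, named after its values were seen, had 0.66 on a probe set other than its brightest.

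Genes downstream showed no common direction either. Of 11 kinases activated by MAP kinases, 4 were positive and 7 negative, with a median log2 ratio of -0.02. MKNK2, a kinase of the translation factor eIF4E, gave -0.42 (brightest probe set) and 0.47 (the other). Of 8 feedback inhibitors of ERK signalling with a ratio, 5 were positive and 3 negative (median 0.05), with SPRED2 level at 726 in co-culture and 725.5 alone. ERRFI1, an inhibitor of EGF receptor kinases named after its values were seen, was the highest of them, at 277 and 139 (log2 ratio 0.99, and past 2-fold after quantile normalization and after loess). Of 14 listed ERK-dependent transcripts 8 had a ratio, 6 positive and 2 negative, with a median of 0.09. CCND1, the G1 cyclin D1, was at least 2.67-fold lower (108 and 309), with 125 and 198 on its other probe set. The 2-fold call was lost with the floor at the 70th percentile (log2 ratio at most -0.12) and on the probe set used without x_at and s_at (-0.66). EGR1, a transcription factor induced within minutes of ERK activation and named after its values were seen, was level at 187 and 182. FOS, a partner in AP-1 also named after its values were seen, was below the floor on both arrays (9.42 and 64.7). Likewise named after their values were seen, PHLDA1 (937 and 590, log2 ratio 0.67), ETV1 (0.27), MYC (0.23) and ETV5 (0.13) were higher on their brightest probe sets. Other probe sets ran from -1.06 to 1.33 for PHLDA1, from -0.02 to 0.55 for ETV1 and from -0.15 to 1.24 for ETV5. Among 15 other DUSP and related phosphatases with a ratio, 8 were positive and 7 negative (median 0.07), and DUSP26 was at least 2.24-fold lower (63.0 and 260).

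Both arrays were on a common scale, with a mean of 500.1 after trimming 2% at each end. The ratio of 3′ to 5′ signal of ACTB was 8.09 in co-culture and 19.5 alone, and that of GAPDH was 2.46 and 3.07. Its part in the DUSP ratios was not tested. Plasma cell markers were above the floor for 10 of 10 genes on both arrays, with summed signals of 213825 in co-culture and 223355 alone. Of 18 measured pDC markers, 10 exceeded the floor with pDCs and 13 without. Their summed signal was 26753 in co-culture and 18747 alone, of which LAMP5 gave 19601 and 9053. LAMP5 was the only one with a ratio or bound of at least 2-fold higher, 4 were at least 2-fold lower (GZMB at 174 and 604, TLR9 at 111 and 259.7, PACSIN1 at 400.2 and 928, BCL11A at 94.6 and 269), and the median log2 ratio was -0.29. LILRA4 (306 and 256, log2 ratio 0.26), IRF8 (396 and 330, 0.26) and TLR7 (213 and 96.2, at least 0.78) were higher with pDCs. Apart from these and LAMP5, every pDC marker with a ratio was lower. CLEC4C (61.4 and 6.43) and IL3RA (29.0 and 21.1) were below the floor on both arrays. Of 9 monocyte and macrophage markers, 4 exceeded the floor with pDCs and 5 without, with summed signals of 795 and 1672, LYZ being at 17.0 and 711. ITGAM, at 234 and 104 (log2 ratio at least 0.91), was the only one of them with a positive ratio. Of 8 T cell markers, 3 and 4 were above the floor, with sums of 628 and 871. No marker had a signal of 0. The part of other cells in the DUSP values was not tested.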

How the data were processed

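Per the labels' protocols, RNA was extracted with Trizol, labelled with biotin and hybridised to 1 array per group. The authors deposited a linear intensity for each probe set. Per the submitters' processing notes it was computed with MAS5, and the version is unstated there.

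Gene symbols came from the platform annotation and were compared with RefSeq through the gene identifier. Of 54675 probe sets, 41091 had 1 symbol and only these were used. The floor was the median of each array. A gene was represented by its probe set of highest mean log2 signal, and the size threshold was 2-fold. The members and the pathway and marker lists were chosen with earlier results of these data known. The genes named were the 10 members, of each other list the 3 largest ratios past 2-fold or else the gene of highest signal, MAPK3, MAPK8 and cell markers, and genes outside this rule are said to be so. Listed genes without a probe set of 1 symbol were not analysed here. Promoters came from RefSeq (GRCh38.p14). The floor and 2-fold rule was tried on a simulated pair of arrays, with changes placed only in probe sets of high signal. That trial does not cover signals near the floor. With 1 array per group, the number of arrays limits the precision. Tools were Python 3.11.15, numpy 2.4.6, pandas 2.3.3, statsmodels 0.14.6 and matplotlib 3.10.9.

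Alternatives were median centring, quantile normalization, loess (span 0.3), a lower floor (30th percentile), a higher one (70th percentile), no floor, the mean over probe sets, leaving out x_at and s_at probe sets, and thresholds of 1.5-fold and 3-fold. For the share of all genes past 2-fold, a count among bright genes alone was another.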

Additional observations from a re-analysis of the deposited data

How the results depend on the processing

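The median of the DUSP members stayed negative under all 8 settings run for it, from -0.31 to -0.23, and no ratio past 2-fold changed sign. DUSP10 turned to -0.13 without x_at and s_at probe sets, where DUSP1 has no probe set, and DUSP22 to 0.18 with the mean over probe sets. MKNK2 was positive in both of these, and SPRED2 turned negative after quantile normalization and loess. Members at least 2-fold higher numbered 0 as reported, 1 with the mean over probe sets (DUSP6, through 1 bound) and 1 at 1.5-fold. Members lower numbered 1 as reported, 0 with the floor at the 70th percentile, 0 without x_at and s_at, 3 at 1.5-fold and 0 at 3-fold. Member probe sets higher numbered 2 as reported, 1 after quantile normalization, 1 with the 70th percentile floor, 6 at 1.5-fold and 1 at 3-fold. Those lower numbered 1 as reported, 3 with the 30th percentile floor, 3 with no floor, 0 with the 70th, 6 at 1.5-fold and 0 at 3-fold. The share over all probe sets was computed only as reported, at 4.19% higher and 4.67% lower. The probe set counts under other settings therefore have no share to be read against.

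Other pathway genes higher numbered 0 as reported, 1 after quantile normalization, 1 after loess, 4 with the 30th percentile floor, 8 with no floor and 5 at 1.5-fold. Those lower numbered 3 as reported, 1 with the 70th percentile floor, 1 without x_at and s_at, 8 at 1.5-fold and 0 at 3-fold. Of all 14408 genes with a ratio, 456 were higher and 650 lower as reported, 1656 and 2208 at 1.5-fold, and 64 and 95 at 3-fold. These became 1502 and 1920 with the 30th percentile floor, 187 and 199 with the 70th, and 2365 and 2776 with none. Among 8565 bright genes alone they were 250 and 299. The number of genes with a ratio changes with the floor, so counts under different floors do not share a total. That number is given only as reported. Under other normalizations, floors or choices of probe sets, counts of members and of other pathway genes therefore have no share to be read against. Apart from the thresholds, the floor and the choice of probe sets, whose construction sets these counts, the cause was not tested. No paired analysis was possible because each group had 1 array, so no array could be left out either. Small list medians changed sign: that of the ERK cascade was 0.01 under each other floor, that of the kinases activated by MAP kinases 0.09 with the mean over probe sets, and those of the p38 cascade and the ERK-dependent transcripts -0.13 and -0.06 without x_at and s_at. Signals near the floor limit DUSP1, DUSP2, DUSP8, DUSP10 and DUSP16.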

Other observations

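The genes below were named after their values were seen, and the ratio given first is that of the brightest probe set, none of which was past 2-fold. Of upstream kinases in the JNK list, MAP3K5 (ASK1), which responds to oxidative stress, had 512 in co-culture and 345 alone (log2 ratio 0.57), and 0.25 on its other probe set. MAP3K7 (TAK1), which relays cytokine signals, had 1078 and 734 (0.55), with 0.43 to 1.18 on 3 others, the last past 2-fold. MAP2K4, which phosphorylates JNK, had 919 and 681 (0.43), and 0.34 on its other probe set. MAP3K1 had 3422 and 2626 (0.38). MAP3K11 was at 0.19, and MAP3K12 was at -0.14, with -0.40 to 0.16 on its other probe sets.

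Among phosphatases near the DUSP members, PTPN7, a tyrosine phosphatase of blood cells that acts on ERK and p38, had 4216 in co-culture and 2759 alone (0.61), and 0.44 on its other probe set. DUSP14, an atypical phosphatase, had 1647 and 2371 (-0.53), and DUSP28 had 964 and 1461 (-0.60), each on 1 probe set with a ratio. These 3 were likewise named after their values were seen.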
